A study of Mus musculus with 22 samples.

Results

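The genes that cultured MC38 cells expressed were followed into the tumors that these cells formed in immunocompetent mice. MC38 is a mouse colon adenocarcinoma line that was induced chemically in a C57BL/6 mouse and is used as a transplantable tumor. The genes were chosen by their level in the cultured cells, as those whose 2 MC38 libraries averaged 50 normalized counts or more. The rule took 9779 of the 46882 genes listed. All 9779 were among the 14708 genes tested, since the filter on low values, a mean of at least 5 over the libraries compared, took out none of them.

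The wild-type tumors came from C57BL/6N mice that were 8 to 12 weeks old, 3 tumors at day 23 and 3 at day 46 after the cells were injected under the skin. The MC38 libraries are labelled day 0 and carry no genotype of a host. As the reference without adaptive immunity, 6 tumors of MC38 cells labelled as grown in RAG1-/- mice (B6.129S7-Rag1tm1Mom/J, also 8 to 12 weeks old), 3 at day 13 and 3 at day 23, were used. RAG1-/- mice lack mature T and B cells but keep NK cells and macrophages, and the strain of these hosts cannot be told apart from the genotype. Day 23 was sampled in both hosts. The comparison between the hosts took the mean over both days of each host, so that it partly mixes day and genotype. All hosts were female, each tumor was cut into 3 pieces of which the RNA came from one, and MC38 is a single line, so that the spread between the 2 MC38 libraries may be technical. The labels do not say that they were separate cultures.

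A tumor under the skin is a mixture of cancer cells and host cells, although the labels call every library tumor cells. Laptm5, Coro1a and Cd53, all genes of leukocytes, had 0 reads in both MC38 libraries, whereas the 5 leukocyte markers summed to between 4869 and 7680 normalized counts in the wild-type tumors. The 11 markers of macrophages and monocytes summed to between 23944 and 34967 in the wild-type tumors and between 17298 and 29278 in tumors labelled RAG1-/-, against 180 and 207 in the cells, with 3 of the 11 at 0 reads in both MC38 libraries. Of the 11 markers, all were higher in wild-type tumors than in the cells. For fibroblasts this held for 8 of 9, with sums of 19496 to 51822 against 5160 and 5804. It held for 8 of 8 endothelial markers, with sums of 581 to 1548 against 9.41 and 14.7, and for 7 of 11 T and NK cell markers, 10 of which were at 0 in both MC38 libraries. Rag1, the gene targeted in these mice, had 0 reads in both MC38 libraries, at most 1 read in each wild-type tumor and between 1.07 and 11.4 normalized counts in tumors labelled RAG1-/-, which goes against the label. The libraries read 3′ ends, which lie outside the coding stretch removed in this allele, so that the gene is no check of the label. The T and NK cell markers summed to between 101 and 465 in wild-type tumors and between 6.55 and 64.8 in tumors labelled RAG1-/-, with no overlap. In such bulk libraries, fewer cells of a type and less RNA per cell cannot be told apart, and any gene that host cells also express can be higher in a tumor without a change in the cancer cells. Host RNA also takes a share of every tumor library, so that a gene of the cancer cells alone is lowered by that share, which was not measured.

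The libraries held between 7312850 and 17104093 recovered reads in the wild-type tumors, and 11602486 and 13135241 in the MC38 cells. A level of 3 reads corresponded to 1.88 to 4.75 normalized counts in the wild-type tumors. A chi-square test of the reads found no 2 libraries of a group that differed by as little as sampling noise. One tumor, WT day 46 replicate 3, lay apart from the other 5 in 358 of the 9779 genes (3.66%), against 54 to 144 genes for each of the other tumors.

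Of the 9779 genes, 1336 (13.7%) were lower in the 6 wild-type tumors than in the cells and 1024 (10.5%) were higher (limma, Benjamini-Hochberg adjusted over all 14708 genes). Among all genes tested, 9.61% were lower and 18.3% were higher. These counts describe the genes and are no test of them, because the MC38 values that chose the genes also enter the comparison. More than 2-fold lower were 375 genes and more than 2-fold higher were 422. Every wild-type tumor lay below both cell libraries in 2101 genes (21.5%, against 15.7% of all genes tested) and above both in 1380 (14.1%, against 21.7%). The median log2 fold change was −0.08 over the 9779 genes and 0.05 over all genes tested. The larger number of genes stayed. In 6889 (70.4%) the whole 95% interval of the log2 fold change lay between −1 and 1, that is within 2-fold, against 47.7% of all genes tested, and 1196 genes were neither called nor held within these limits. With only 2 MC38 libraries the counts rested on both of them: without MC38 replicate 1, 509 genes were lower and 539 higher, and without MC38 replicate 2, 426 and 495. The split also depended on the scaling, since 43.4% of the called genes were higher and 56.6% lower with the deposited size factors, but 24.3% and 75.7% after upper-quartile scaling, which moved the median of all genes from 0.05 to −0.10.

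**Figure D1:**
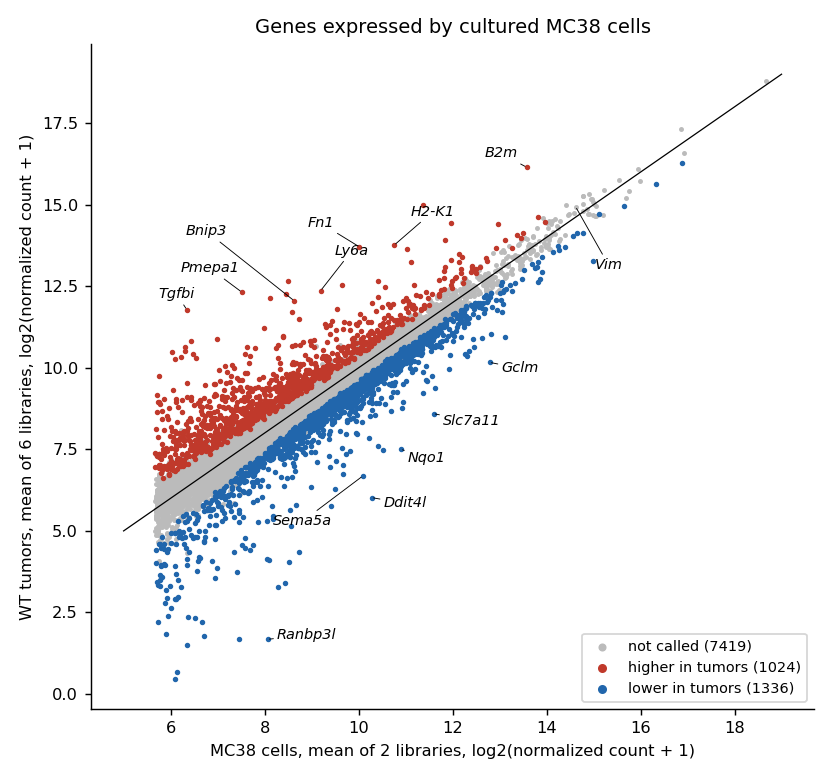
Mean level of each of the 9779 genes in the 2 MC38 libraries (horizontal axis) and in the 6 wild-type tumors (vertical axis), both as log2(mean normalized count + 1). Red points mark the 1024 genes that were higher, blue points the 1336 that were lower and gray points the 7419 that were not called, and the line marks equal levels. Named examples such as Tgfbi and Pmepa1 lie far above the line, Nqo1, Slc7a11, Gclm and Ddit4l far below it, and Vim close to it.

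The share of lower genes increased with the level in the cells, from 6.75% of the genes with a mean of 50 to 100 normalized counts and 8.77% of those with 100 to 500 to 19.2% of those with 500 to 2000 and 24.4% of those with 2000 and over. At the threshold, the last genes taken were Slc29a3, Thap6 and Zbtb14, each with 52.2 and 47.9 normalized counts in the MC38 libraries, and the first left out were Lhpp, Fcgrt (39.4 and 60.6) and Rangrf (53.9 and 45.9). Slc29a3 had 124 to 253 normalized counts in the wild-type tumors and Zbtb14 had 27.3 to 37.7. Since a gene near the threshold can pass it by a high value in the cells, the lower genes named below for their size have an MC38 mean of at least 200.

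The lowest median of the gene lists was that of NRF2 target and redox genes. NRF2 is a transcription factor that is degraded in unstressed cells and, when released, binds the antioxidant response element in promoters of genes for glutathione synthesis, quinone reduction and NADPH production. Slc7a11 encodes the xCT transporter, through which cells take up cystine, the oxidized form of cysteine. Hypoxia acts through other elements, where HIF binds, and interferons through the interferon-stimulated response element bound by IRF factors.

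Promoters of 4 genes from these groups are shown as examples of windows that hold the motif searched, and they were picked for that match. Genes with larger changes in the same lists, such as Nqo1 and Slc7a11, had a window without it. Each is the 250 bases before the RefSeq transcription start on GRCm38.p6, written 5′ to 3′ on the strand of the gene, with the matched motif in capitals. The antioxidant response element was searched as TGACNNNGC, the hypoxia response element as ACGTG and the interferon-stimulated response element as GAAA, 2 bases of any kind and GAAA, each on both strands, and ACGTG matched on both strands at overlapping positions in Bnip3. The Gclm window lies on the plus strand at chr3:122245307-122245556, with the match 134 bases before the start. The Txnrd1 window lies on the plus strand at chr10:82858956-82859205, with the match 92 bases before the start, and is 1 of 3 windows of this gene, of which the others hold no match. The Bnip3 window lies on the minus strand at chr7:138909507-138909756, with its matches 107 and 108 bases before the start. The B2m window lies on the plus strand at chr2:122147437-122147686, with the match 139 bases before the start.
Gclm: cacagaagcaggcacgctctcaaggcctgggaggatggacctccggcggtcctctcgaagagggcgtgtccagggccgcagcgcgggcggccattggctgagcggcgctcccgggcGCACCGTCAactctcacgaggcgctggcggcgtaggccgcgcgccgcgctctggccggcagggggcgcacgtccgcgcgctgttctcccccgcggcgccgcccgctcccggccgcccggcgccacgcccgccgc
Txnrd1: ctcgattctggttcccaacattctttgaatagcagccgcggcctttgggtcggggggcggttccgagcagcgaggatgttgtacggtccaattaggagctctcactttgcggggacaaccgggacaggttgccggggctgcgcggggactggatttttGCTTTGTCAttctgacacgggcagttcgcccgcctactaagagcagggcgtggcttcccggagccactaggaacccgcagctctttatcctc
Bnip3: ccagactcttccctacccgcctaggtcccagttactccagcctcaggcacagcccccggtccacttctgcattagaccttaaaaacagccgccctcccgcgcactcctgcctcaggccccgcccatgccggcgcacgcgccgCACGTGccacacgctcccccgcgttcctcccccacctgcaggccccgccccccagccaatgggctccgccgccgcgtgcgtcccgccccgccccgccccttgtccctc
B2m: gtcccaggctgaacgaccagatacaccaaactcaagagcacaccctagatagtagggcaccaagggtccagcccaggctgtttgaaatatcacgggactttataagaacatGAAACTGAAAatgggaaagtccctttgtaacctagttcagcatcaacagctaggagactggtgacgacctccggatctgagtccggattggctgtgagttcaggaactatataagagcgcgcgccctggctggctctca
Of the 14 NRF2 target and redox genes with a window in the RefSeq table, 8 (57.1%) held the antioxidant response motif, against 12.4% of all 32851 windows. The hypoxia motif was in 18 of 26 glycolysis and hypoxia genes (69.2%, against 19.6% of all windows) and the interferon motif in 7 of 20 MHC class I and interferon genes (35%, against 3.44%). The windows counted were longer than those printed, since they also took in a short stretch after the start. A gene was counted when any of its windows held the motif, so that its share is not directly comparable with that of single windows. Nqo1, Slc7a11 and Gstm1 had no window with the antioxidant response letters. A match is a description of these letters and no evidence that a factor binds there.

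Of the 19 NRF2 target and redox genes that the cells expressed, 12 were lower in the wild-type tumors, 1 was higher and 6 were not called, with a median log2 fold change of −1.22 against −0.08 over the 9779 genes and 11 to 14 lower over the alternatives. Nqo1 (chromosome 8 of GRCm38, 107388225 to 107403206, minus strand), which encodes a quinone reductase, had 2019 and 1797 normalized counts in the MC38 libraries and between 98.8 and 238 in the wild-type tumors, with a median of 183. All tumors lay far below both cell libraries, and the log2 fold change was −3.44 ± 0.30 (SE, n = 6 and 2; limma adjusted p = 5.79e-08). In the tumors, Nqo1 was at 9.46% of its level in culture.

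Slc7a11, the light chain of the cystine transporter, had 3244 and 2944 normalized counts in the cells and between 207 and 613 in the wild-type tumors, with a median of 370. Its log2 fold change was −3.11 ± 0.32 (SE; limma adjusted p = 5.27e-07), without overlap between the groups. The genes for both subunits of the enzyme that makes the glutathione precursor from this cysteine fell as well. Gclm, the modifier subunit (promoter shown above), had 6610 and 7542 normalized counts in the cells and between 578 and 1685 in the tumors, with a median of 1223 and a log2 fold change of −2.71 ± 0.29 (SE; limma adjusted p = 1.05e-06). Gclc, the catalytic subunit, had 1581 and 1453 in the cells and between 367 and 571 in the tumors, with a log2 fold change of −1.71.

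The glutathione transferases Gstm1 (−2.22 on the log2 scale) and Gsta4 (−2.16) and Srxn1 (−1.81), which restores oxidized peroxiredoxins, fell too. Txnrd1, the thioredoxin reductase, had 3726 and 4202 normalized counts in the cells and between 979 and 1895 in the tumors, with a median of 1310 and a log2 fold change of −1.58 ± 0.18 (SE; limma adjusted p = 2.05e-06). Of the pentose phosphate pathway, which makes NADPH, Pgd was at −1.83 (5360 and 5872 in the cells, 1339 to 1823 in the tumors), G6pdx at −1.22 and Taldo1 at −0.98. Me1, the malic enzyme, was at −0.61. In each of these 8 genes, every tumor lay below both cell libraries. Tkt, the transketolase of the same pathway, was at −0.78 and was not called (limma adjusted p = 0.0868), with 518 and 596 normalized counts in the cells and between 195 and 530 in the tumors.

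Not every gene of the group followed. Ugdh, which makes UDP-glucuronate, was higher, with 288 and 225 normalized counts in the cells and between 434 and 559 in the tumors (0.97 on the log2 scale; limma adjusted p = 0.00118). Hmox1, the heme oxygenase that macrophages also express, had a log2 fold change of −0.62 that did not pass the test (limma adjusted p = 0.353). Txn1 (−0.33) and Prdx1 (−0.19) were also not called. Fth1, the ferritin heavy chain and one of the most abundant mRNAs of the cells, fell from 82557 and 81648 normalized counts to between 35566 and 63566 (−0.71 on the log2 scale; limma adjusted p = 0.0183).

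**Figure D2:**
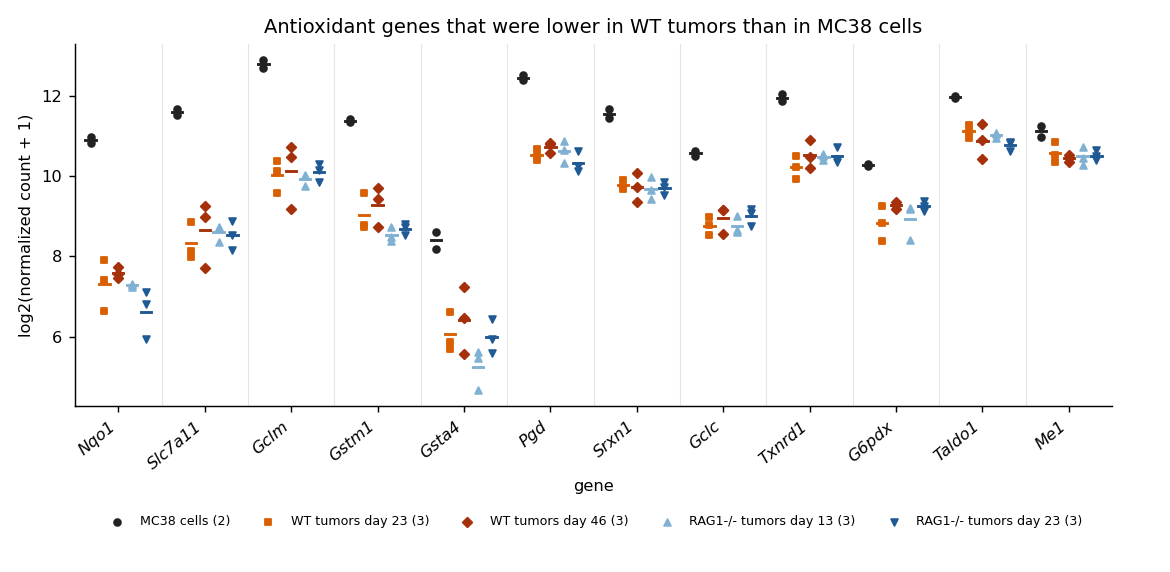
Levels of the 12 lower NRF2 target and redox genes as log2(normalized count + 1), 1 point per library and a bar at the mean of each group, for MC38 cells, wild-type tumors (day 23, day 46) and tumors labelled RAG1-/- (day 13, day 23). Nqo1, Slc7a11 and Gclm show the widest gaps, with every tumor of either host below both cell libraries.

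The fall was also measured in the hosts without T and B cells. Tumors labelled RAG1-/- were compared with the same 2 MC38 libraries, so that the values are given side by side. Of the 19 genes, 12 were lower in tumors labelled RAG1-/-, with a median log2 fold change of −1.18. Nqo1 had between 60.2 and 157 normalized counts in these tumors (−3.95 against the cells), Slc7a11 between 287 and 473 (−3.03) and Gclm between 859 and 1264 (−2.77). When the tumors of both hosts were compared directly, which does not use the MC38 libraries, the log2 fold change of wild-type over tumors labelled RAG1-/- was 0.50 for Nqo1 (limma adjusted p = 0.32), −0.08 for Slc7a11 (limma adjusted p = 0.927) and 0.06 for Gclm (limma adjusted p = 0.942), and these 3 genes were not called.

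Genes of amino acid supply were lower in part. ATF4 is a transcription factor that cells use when amino acids run short. Of 25 genes for amino acid supply and ATF4 targets, 10 were lower, 2 were higher and 13 were not called, and 11 stayed within 2-fold (6 to 11 lower over the alternatives). Slc7a11, given above with the redox genes, is also in this list and is 1 of the 10. Sesn2, a sensor of leucine and an ATF4 target, was at −1.77, Chac1, which degrades glutathione, at −1.39, Stc2, a secreted glycoprotein, at −1.34 and Slc7a1, the transporter of basic amino acids, at −0.95. Of the serine pathway, Psat1 fell from 10212 and 10261 normalized counts to between 4891 and 7269 (−0.74), and Mthfd2, the mitochondrial folate enzyme, by 0.84 on the log2 scale. Psph of the same pathway was called lower (−0.69), but lost its call in 11 of 19 alternatives. Asns, the asparagine synthetase and a classical ATF4 target, stayed (3567 and 4061 in the cells, 2456 to 4042 in the tumors, −0.22), and Atf4 itself was at −0.44 without passing the test (limma adjusted p = 0.174). Nupr1 (0.94), a stress-induced cofactor, and Vldlr (0.70), a lipoprotein receptor, were higher.

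Cth, which makes cysteine from cystathionine, was lower in the wild-type tumors than in either other group. It had 242 and 216 normalized counts in the cells, between 47.2 and 148 in the wild-type tumors and between 134 and 287 in tumors labelled RAG1-/-. The wild-type tumors lay below both cell libraries and overlapped the range of tumors labelled RAG1-/-. The log2 fold change was −1.43 against the cells (limma adjusted p = 0.00275) and −1.12 ± 0.23 against tumors labelled RAG1-/- (SE, n = 6 and 6; limma adjusted p = 0.0218), and the call between the hosts was lost in 7 of 23 alternatives.

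Genes of growth were lower in part. Of 28 genes for MYC and ribosome biogenesis, 12 were lower, none was higher and 16 were not called, and 19 stayed within 2-fold (median −0.50). Utp20, a component of the small subunit processome, had 1108 and 1272 normalized counts in the cells and between 338 and 563 in the tumors (−1.29 ± 0.18, SE; limma adjusted p = 2.29e-05). Polr1a, the largest subunit of RNA polymerase I, was at −1.02, Odc1, the first enzyme of polyamine synthesis, at −0.89, Polr1b at −0.79 and Nolc1 at −0.59. Nucleolin (Ncl) fell from 20885 and 18737 normalized counts to between 10321 and 16290 (−0.66), whereas Npm1 at −0.53 (limma adjusted p = 0.0523) and Myc at −0.28 (limma adjusted p = 0.555) were not called. This count depended on the processing, with 5 to 18 genes lower over the alternatives and the lowest number without MC38 replicate 2.

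Most replication and mitosis genes stayed, and part of them were lower. Over all 9779 genes, 70.4% stayed and 13.7% were lower. Among those with an MC38 mean of 500 to 2000, 2640 of 3191 stayed and 19.2% were lower. Of 34 DNA replication genes, 12 were lower, none was higher and 29 stayed within 2-fold (median −0.30, with 3 to 16 lower over the alternatives). Gins3, a subunit of the replicative helicase, had 509 and 503 normalized counts in the cells and between 114 and 322 in the tumors (−1.44). Rrm2, the regulated subunit of ribonucleotide reductase, fell from 5271 and 5017 to between 1954 and 3794 (−0.98; limma adjusted p = 0.000699). Pole was at −0.84, Mcm3 at −0.80 and Mcm7 at −0.48. Pcna, with 2575 and 2779 normalized counts in the cells and 1536 to 2652 in the tumors, was at −0.33 and was not called (limma adjusted p = 0.102).

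Of 29 mitosis genes, 7 were lower, 2 were higher and 27 stayed within 2-fold (median −0.22, with 0 to 11 lower over the alternatives). Foxm1, a transcription factor of mitosis genes, was at −0.79, the kinase Plk1 fell from 1227 and 1413 normalized counts to between 686 and 937 (−0.67) and Birc5 was at −0.57. Ccnd1 (0.53), the cyclin of early G1, was higher in every tumor, and Bub1 (0.58) was called higher although the groups overlapped. Mki67 had 1731 and 1711 normalized counts in the cells and between 1037 and 2027 in the tumors (−0.22), Cdk1 was at −0.28 and Top2a at −0.33, and all 3 stayed.

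Genes of lipid synthesis were lower on the side of fatty acids, though most of these calls rested on both MC38 libraries. Of 10 fatty acid synthesis genes, 6 were lower and none was higher (median −0.60, with 1 to 7 lower over the alternatives). Me1, given above with the redox genes, is also in this list and is 1 of the 6. Fasn, the fatty acid synthase, had 3308 and 4089 normalized counts in the cells and between 1363 and 2353 in the tumors (−1.01 ± 0.22, SE; limma adjusted p = 0.00212). Scd2, a desaturase, fell from 15451 and 15034 to between 6201 and 9387 (−0.98), and Scd1 was at −0.74 and Acaca at −0.69. Of 21 cholesterol genes, 3 were lower, among them Lss (−0.87) and Sc5d (−0.86), a share near that of all 9779 genes. No cholesterol gene was called when either MC38 library was left out, 1 was with the replicate block and 5 were after upper-quartile scaling.

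Of 17 cytosolic and mitochondrial chaperone genes, 7 were lower and none was higher (median −0.43, with 2 to 10 lower over the alternatives). Hsph1 fell from 6378 and 6639 normalized counts to between 1703 and 5996 (−1.12), and Hspd1 was at −0.82, Cct8 at −0.75 and Hspa8 at −0.58. Of 17 genes for folding in the endoplasmic reticulum, 13 stayed, among them Hspa5 (−0.12), while Hyou1 (−0.84) was lower and Xbp1 (0.98) was higher (0 to 2 in each direction over the alternatives). Of 26 genes of the respiratory chain and the citric acid cycle, 25 stayed within 2-fold and 4 were lower, among them Mdh2 (−0.72) and Atp5b (−0.51), again a share near that of all 9779 genes. The lower genes of this list numbered 1 when either MC38 library was left out and 8 after upper-quartile scaling.

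Against this, genes of glycolysis and of the hypoxia response were higher. HIF is the factor that cells stabilize when oxygen is low. Of 28 such genes, 21 were higher, none was lower and 4 stayed (median 0.90, with 12 to 23 higher over the alternatives). Bnip3, a mitophagy receptor and HIF target (chromosome 7, 138890836 to 138909519, minus strand; promoter shown above), had 370 and 418 normalized counts in the cells and between 3280 and 5287 in the wild-type tumors, with a median of 4285. All 6 tumors lay above both cell libraries (3.41 ± 0.22 on the log2 scale, SE; limma adjusted p = 8.09e-10). The exons of Bnip3 share bases with Gm45507 on the other strand, and without a stated strand setting in the counting their reads cannot be told apart.

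Egln3, a prolyl hydroxylase that HIF induces, had 159 and 233 normalized counts in the cells, between 876 and 2161 in the wild-type tumors and between 464 and 1354 in tumors labelled RAG1-/-. Relative to the cells, the log2 fold changes were 2.99 and 1.91. It was also the one gene of this list that was higher in wild-type than in tumors labelled RAG1-/- (1.08 ± 0.20, SE, n = 6 and 6; limma adjusted p = 0.0128), with overlapping ranges. Pfkfb3 (1.74), Ero1l (1.62), Higd1a (1.34), P4ha1 (1.32), the lactate exporter Slc16a3 (1.20), Gpi1 (0.88) and Vegfa (0.79) were higher in every tumor. Ldha rose from 13631 and 15231 normalized counts to between 21140 and 30789 (0.80), whereas Pkm stayed (0.04) and the glucose transporter Slc2a1 did not pass the test (0.57; limma adjusted p = 0.141). Gapdh, Eno1, Pgk1, Pgam1 and Tpi1 have processed copies in the genome, so that their counts are uncertain. Host cells use these genes too, and the part of the host cells in the rise was not tested.

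**Figure D3:**
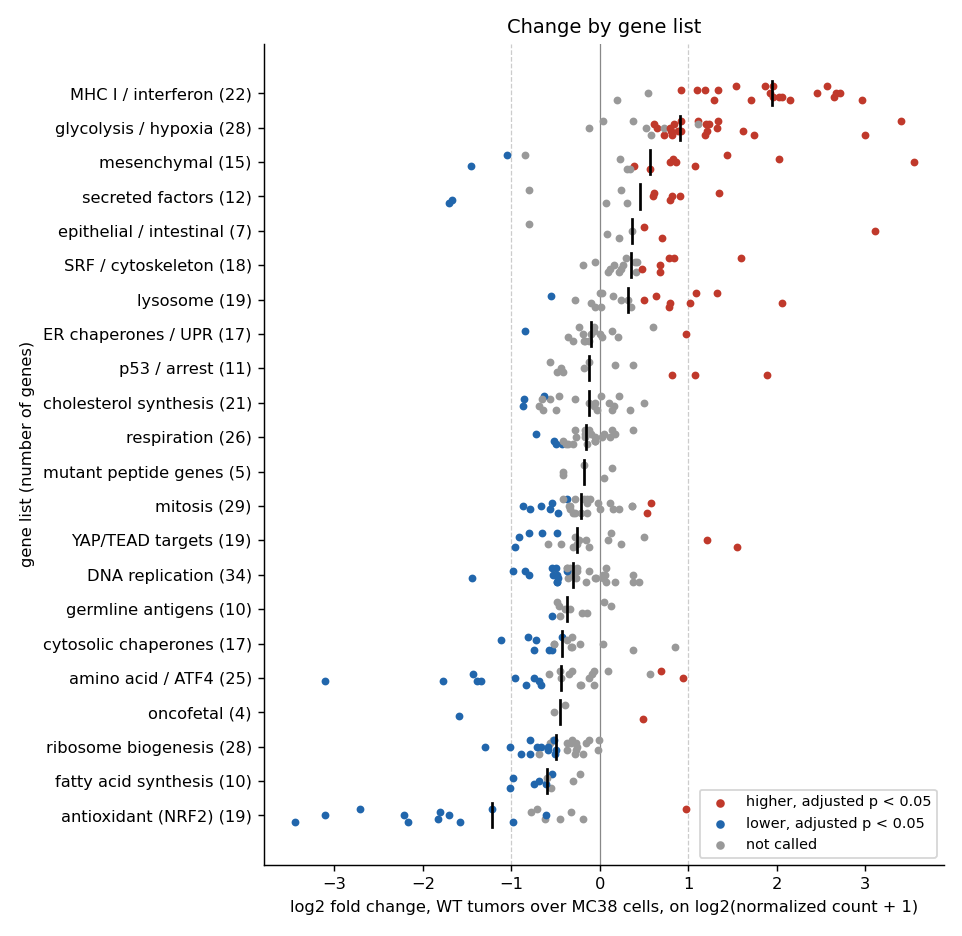
Log2 fold change of wild-type tumors over MC38 cells for every expressed gene of each gene list, 1 point per gene, with the median of the list as a black bar and dashed lines at −1 and 1. Red points were higher, blue points lower and gray points not called. The redox list lies lowest with a median of −1.22, the MHC class I and interferon list highest with 1.94, and the replication, mitosis and respiration lists lie between −0.30 and −0.16.

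Antigen presentation and interferon response genes were higher as a group. MHC class I molecules carry peptides from inside the cell to its surface, where CD8+ T cells read them, and interferon raises their genes through IRF1 among other factors. Of 22 such genes, 20 were higher and 2 stayed, with none lower (median 1.94, with 18 to 21 higher over the alternatives). B2m, the invariant chain (plus strand of chromosome 2, 122147686 to 122153083, promoter shown above), had 12150 and 12242 normalized counts in the cells and between 63953 and 81701 in the wild-type tumors, with a median of 72678. H2-K1 rose from 1815 and 1651 to between 9214 and 18381, and H2-D1 from 3796 and 4227 to between 17291 and 25642. The log2 fold changes were 2.57 ± 0.19 for B2m (SE; limma adjusted p = 5.31e-09), 2.96 for H2-K1 and 2.45 for H2-D1. The class I genes are near copies of each other, so that reads can be split between H2-K1, H2-D1, H2-Q6 and H2-Q7.

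The peptide transporter Tap1 (2.65), its partner Tap2 (1.33), Tapbp (2.15), the immunoproteasome subunit Psmb8 (2.66), Irf1 (1.86), Isg15 (2.02) and the interferon gamma receptor chains Ifngr1 (2.05) and Ifngr2 (0.92) were higher. Cd274, the gene of PD-L1, had 60.7 and 67.5 normalized counts in the cells and between 138 and 414 in the wild-type tumors (1.96 ± 0.28, SE; limma adjusted p = 3.61e-05). Jak1 stayed (0.20), with 1864 and 1846 normalized counts in the cells and 1896 to 2418 in the tumors, and so did Jak2 (0.55). Macrophages and endothelium, whose 11 and 8 markers were higher as given above, also express these genes at high levels, and their part in the rise was not tested.

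Wild-type and tumors labelled RAG1-/- contain the same injected line and host cells in both cases, and their comparison does not use the values that chose the genes. Of the 9779 genes, 34 were higher in wild-type tumors (0.348%, against 0.646% of all genes tested) and 28 were lower (0.286%, against 0.224%). Of the MHC class I and interferon list, 7 genes were higher in wild-type tumors and none was lower. H2-K1 had between 4516 and 8385 normalized counts in tumors labelled RAG1-/-, below all wild-type tumors (1.11 ± 0.14, SE, n = 6 and 6; limma adjusted p = 0.000524). H2-D1 was higher by 0.98, Tap1 by 0.92, B2m by 0.82 and Irf1 by 0.63 on the log2 scale, with the call of Irf1 lost in 13 of 23 alternatives. Cd274 had between 81.9 and 137 normalized counts in tumors labelled RAG1-/-, all below the lowest wild-type tumor at 138 (1.15 ± 0.20, SE; limma adjusted p = 0.00673). Relative to the cells, the same genes had log2 fold changes of 1.85 for H2-K1, 1.75 for B2m and 0.81 for Cd274 in tumors labelled RAG1-/-.

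Outside the list, the nonclassical class I genes H2-Q6 (1.92) and H2-Q7 (1.51), the interferon-induced GTPases Gbp2 (1.40) and Gbp7 (1.13), the transglutaminase Tgm2 (1.19), the membrane protein Emp2 (1.38) and the myosin heavy chain Myh9 (0.52) were higher in wild-type than in tumors labelled RAG1-/-. The call was lost in 10 of 23 alternatives for Gbp2 and in 11 for Myh9. Ly6a (chromosome 15, 74994877 to 74998031, minus strand), which encodes the surface protein Sca-1 and responds to interferon, had the largest of the positive values. It had 566 and 602 normalized counts in the cells, 6185, 4385 and 8591 at day 23 and 4124, 4295 and 4075 at day 46 in the wild-type tumors. The tumors labelled RAG1-/- had 1976, 1013 and 1507 at day 13 and 526, 1158 and 1745 at day 23. The wild-type tumors lay above all others (2.06 ± 0.23 on the log2 scale against tumors labelled RAG1-/-, SE, n = 6 and 6; limma adjusted p = 0.000185). The markers of T and NK cells, which were also higher in wild-type tumors, summed to at most 465 normalized counts.

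In the other direction, the 5 genes with the largest differences were Bdh1, Khdrbs2, Ica1, Lbx2 and Cxxc5. Ica1, which encodes a protein of secretory granules, had 73.6 and 92.9 normalized counts in the cells, between 50.3 and 94.3 in tumors labelled RAG1-/- and between 9.51 and 26.6 in wild-type tumors. The 2 tumor groups did not overlap (−1.92 ± 0.28 on the log2 scale, SE, n = 6 and 6; limma adjusted p = 0.00186). Khdrbs2, an RNA-binding protein, had 282 and 244 in the cells, between 36.7 and 169 in tumors labelled RAG1-/- and between 4.89 and 26.9 in wild-type tumors (−2.14 ± 0.35 between the hosts, SE; limma adjusted p = 0.00424). Cxxc5, a zinc finger protein, had 99.3 and 87.0 in the cells, between 82.3 and 144 in tumors labelled RAG1-/- and between 23.5 and 60.3 in wild-type tumors (−1.48). Lbx2 (−1.75), a homeobox gene, and Bdh1 (−2.87), an enzyme of ketone body metabolism, were lower too, and Bdh1 had between 0 and 5.90 normalized counts in 5 wild-type tumors but 37.0 in WT day 46 replicate 3, so that its size depends on the pseudocount. Bdh1 lost its call between the hosts in 12 of 23 alternatives.

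**Figure D4:**
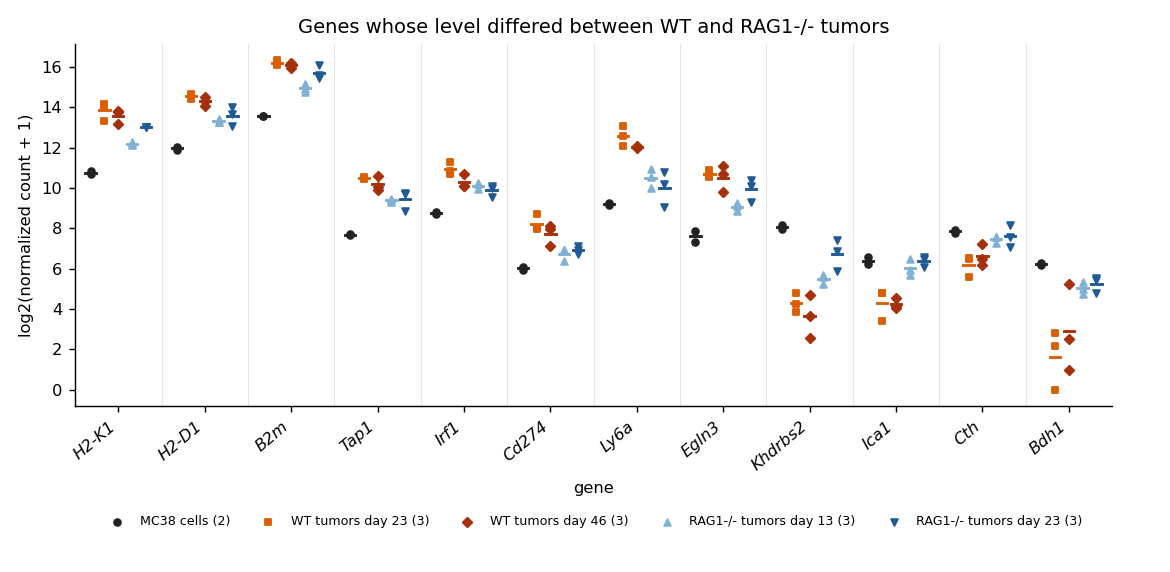
Levels of 12 genes that differed between wild-type and tumors labelled RAG1-/- as log2(normalized count + 1), 1 point per library and a bar at the mean of each group, with MC38 cells in black and the days of each host apart. Ly6a lies between 4075 and 8591 in wild-type tumors and between 526 and 1976 in tumors labelled RAG1-/-, and Ica1 and Khdrbs2 lie lower in wild-type than in tumors labelled RAG1-/-.

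Each day of sampling was also compared with the cells by itself. At day 23, 1218 of the 9779 genes (12.5%) were lower than in the cells and 967 (9.89%) were higher, against 8.71% and 16.4% of all genes tested. At day 46, 949 (9.7%) were lower and 777 (7.95%) were higher, against 6.81% and 16.1% of all genes tested. In tumors labelled RAG1-/-, 1060 (10.8%) were lower and 827 (8.46%) were higher, against 7.55% and 15.8% of all genes tested. These comparisons share the 2 MC38 libraries. Between day 46 and day 23, with 3 tumors each, limma called none of the 9779 genes in either direction, against 0.0068% of all genes tested called higher and 0% lower, with 957 at an unadjusted p under 0.05. edgeR called 0 as well (959 at an unadjusted p under 0.05) and DESeq2 called 35, so that a difference between the days was not detectable at this number of tumors with the first 2 tools.

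The largest falls included genes that the tumors hardly expressed. Ranbp3l (plus strand of chromosome 15, 8967949 to 9067335), related to a nuclear export cofactor, had 223 and 310 normalized counts in the cells and a total of 12 reads in the 6 wild-type tumors, with 3 of them under 3 reads. Its log2 fold change of −6.85 ± 0.87 (SE; limma adjusted p = 8.5e-06) lies near this floor and depends on the pseudocount. Slc22a23, an orphan transporter, had 304 and 315 in the cells and between 0 and 25.4 in the tumors (−5.92). Ddit4l, an inhibitor of mTOR signaling, fell from 1285 and 1201 normalized counts to between 8.16 and 108 (−4.63 ± 0.63, SE; limma adjusted p = 1.76e-05). Sema5a, a semaphorin, fell from 1069 and 1102 to between 44.0 and 281 (−3.71), with the highest value in WT day 46 replicate 3, and Slco4a1, an organic anion transporter, was at −4.08. Tumors labelled RAG1-/- had log2 fold changes of −6.45 for Ranbp3l, −3.91 for Ddit4l and −2.97 for Sema5a against the same cells.

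Small structured RNAs were also among the lowest. Of the 17 small nucleolar RNA genes that passed the threshold, 15 were lower and none was higher (median −3.89), as were 2 of 2 small Cajal body RNAs (median −3.87). Snora73b fell from 684 and 685 normalized counts to between 14.8 and 121 (−3.99). Rpph1, the RNA component of RNase P, was at −5.23 and shares exon bases with Ccnb1ip1. QuantSeq primes from poly(A) tails, which these RNAs lack in their mature form, and whether their reads come from the mature RNA was not tested. Of the 9241 protein-coding genes, 1220 were lower and 988 were higher.

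The largest rises were those of Tgfbi and Pmepa1. Tgfbi, a matrix protein induced by TGF-beta (plus strand of chromosome 13, 56609523 to 56639562), had 94.1 and 66.5 normalized counts in the cells and between 2390 and 5029 in the wild-type tumors, with a median of 3623. Pmepa1, an inhibitor of TGF-beta signaling, rose from 164 and 198 to between 3555 and 6651. The log2 fold changes were 5.41 ± 0.27 (SE; limma adjusted p = 3.23e-11) and 4.78 ± 0.24, and in tumors labelled RAG1-/- 5.38 and 4.27. Tnnt2 (4.30), Fstl1 (4.14), Gng11 (3.98) and the interferon-induced Rtp4 (3.95) followed.

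Of 15 mesenchymal and matrix genes, 9 were higher and 2 were lower (median 0.57, with 5 to 9 higher over the alternatives). Fibronectin (Fn1) rose from 1056 and 999 normalized counts to between 7393 and 28825 (3.55), Plod2, which modifies collagen, was at 2.03 and Sparc at 1.44. The transcription factors Snai1 (1.07), Zeb2 (0.87) and Zeb1 (0.57) and the integrin chain Itgav (0.83) were higher, and Cd44 was at 0.50. Thbs1 (−1.45), which encodes thrombospondin, and Cdh2 (−1.04), N-cadherin, were lower. Of 9 fibroblast markers 8 were higher, with Dcn and Col3a1 also expressed by the cells, and the part of host fibroblasts in these rises was not tested. Of 18 SRF target and actin cytoskeleton genes, 6 were higher (3 to 8 over the alternatives) and none was lower, among them Tagln2 (1.59), Tpm4 (0.84) and Tpm1 (0.68). Of 19 YAP/TAZ-TEAD target genes, 2 were higher, Dlc1 (1.55) and Rbms3 (1.22), and 5 were lower (2 to 6 over the alternatives), among them Asap1 (−0.96) and Myof (−0.80).

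Of 19 lysosome genes, 8 were higher and 1 was lower (median 0.32, with 4 to 8 higher over the alternatives). Ctsb (1.33), a protease, and Npc2 (1.08), a cholesterol carrier, were higher, and both are abundant in macrophages. Ctsl, with 27824 and 23609 normalized counts one of the most abundant mRNAs of the cells, was lower (−0.55), and the groups overlapped. Of 12 secreted factors, 6 were higher and 2 were lower, but 2 were higher without MC38 replicate 1 and 1 without MC38 replicate 2. Cxcl10 (1.35), Ccl5 (0.90), Hbegf (0.81), Vegfa (0.79) and Mif (0.60) were higher, with the call of Hbegf lost in 9 of 19 alternatives. The neutrophil attractant Cxcl1 fell from 417 and 370 normalized counts to between 87.3 and 160 (−1.67 ± 0.32, SE; limma adjusted p = 0.000593), and the EGF receptor ligand Ereg fell from 667 and 654 to between 119 and 428 (−1.71).

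Of 11 genes for p53 targets and arrest, 3 were higher and none was lower, namely Phlda3 (1.89), Rb1 (1.08) and Cdkn1a (0.82). Only 7 of 30 epithelial and intestinal genes passed the threshold in the cells, and Cdh1, Epcam, Krt8, Krt18, Krt19, Cdx1 and Cdx2 were not among them, so that the label of a colon carcinoma is not carried by these markers. Of the 7, Ly6a and Cd44 were among the 3 that were higher and Sox9 stayed (0.37). Of 4 oncofetal genes, Afp, the fetal serum protein, fell from 812 and 912 normalized counts to between 148 and 682 (−1.59) and Igf2bp2 was called higher (0.49) with overlapping groups, a call that was lost in 10 of 19 alternatives.

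Genes that give the immune system its targets stayed with the deposited scaling. Of 10 cancer-germline antigen genes that the study names, all stayed within 2-fold, and 1 of them, Odf2, was called lower (−0.54; limma adjusted p = 0.0374). After upper-quartile scaling 5 of the 10 were called lower. The log2 fold changes were −0.45 for Atad2, −0.15 for Pbk, 0.05 for Spag9 and 0.13 for Cep55. Of 6 listed genes that encode published MC38 mutant peptides, 5 passed the threshold and all 5 stayed, with 1 of the 5 called lower after upper-quartile scaling. The list may not hold every such gene. Adpgk, a glucokinase, had 344 and 270 normalized counts in the cells and between 237 and 349 in the wild-type tumors, with a log2 fold change of 0.05 and a 95% interval from −0.34 to 0.44. Reps1 was at −0.42, Irgq at −0.41, Dpagt1 at −0.18 and Aatf at 0.14. Irgq no longer stayed in 8 of 18 alternatives. The study found several cancer-germline antigen genes expressed in skin too. The part of host cells in the levels of these antigen genes was not tested. The reads were summed over alleles, and the mutant allele was not analysed here.

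Of the 10 genes with the highest counts in culture, 7 of which are mitochondrial or ribosomal, Pabpc1 (−0.73), Fth1 (−0.71) and mt-Nd1 (−0.63) were lower and none was higher. Among other abundant genes, Vim had 25666 and 24659 normalized counts in the cells and between 26931 and 35700 in the wild-type tumors (0.31). S100a6, a calcium-binding protein, had 61980 and 63350 in the cells and between 42580 and 87347 in the tumors (0.11), and Lgals1, a galectin, was at 0.23. Host cells also express these genes.

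Normal skin, the tissue in which the tumors grew, expressed a small number of these genes hardly at all. Of the 9779 genes, 39 were under 5 normalized counts in both skin libraries. Among the 10 of them with the highest level in the cells, Hoxc11, a homeobox gene, stayed, with 276 and 219 normalized counts in the cells and between 124 and 268 in the tumors (−0.37), but it no longer did so in 11 of 18 alternatives. The long noncoding RNAs C130071C03Rik (−0.09) and Fendrr (−0.27) stayed as well. Of the 10, 5 were lower, among them Nol4 (−3.65), Gm27045 (−1.83) and 1700012B09Rik (−1.36). The macrophage markers summed to 12596 and 13540 normalized counts in skin, less than in any wild-type tumor, and a gene that is low in skin can still be expressed by other host cells.

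**Figure D5:**
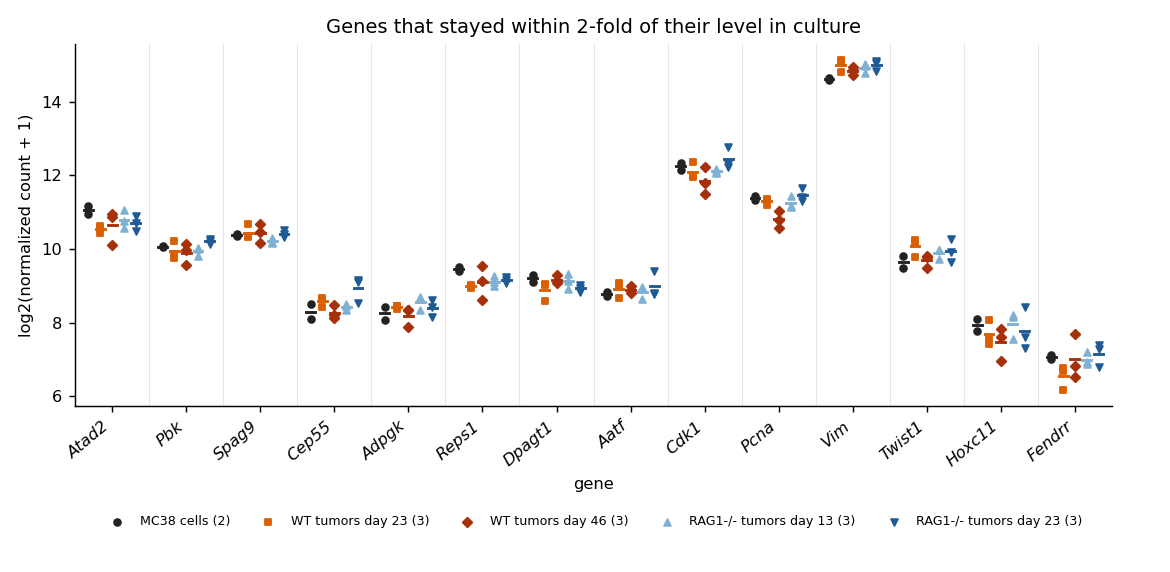
Levels of 14 genes that stayed within 2-fold of their level in culture as log2(normalized count + 1), 1 point per library and a bar at the mean of each group. In the wild-type tumors, Vim lies between 26931 and 35700 normalized counts, slightly above both cell libraries. Adpgk lies between 237 and 349 in them and overlaps the cell libraries.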

How the data were processed

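RNA of the 6 wild-type tumors, 6 tumors labelled RAG1-/- and 2 samples of MC38 cells was compared, with 2 skin libraries as a reference of host tissue. By the authors' account, QuantSeq 3′ libraries were read on an Ion Proton and trimmed with Cutadapt and Trimmomatic (reads under 22 bases removed), alignment to mm10 used STAR and then Bowtie2, primary alignments were kept, ribosomal reads were removed and HTSeq did the counting. The strand setting, the annotation and the versions are not given in the sources used here. The deposited values are a signal, counts divided by DESeq2 size factors by the authors. Whole reads were recovered for 100% of the values within 0.001 reads. A second deposited table, from antibody-treated mice, was not used here, since its columns match no label.

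The members and gene lists were chosen with earlier results of these data known. Some genes are in more than 1 list, among them Slc7a11, Me1 and Vegfa, so that the lists are not independent. Log2(normalized count + 1) was fitted with limma 3.58.1 (R 4.3.3, mean-variance trend) over 5 groups of 14 libraries and all 14708 genes with a mean of at least 5. P-values are two-sided and Benjamini-Hochberg adjusted, and the threshold was 0.05. They measure the spread between these samples, and fold changes on this scale understate the change of low genes. As alternatives, the recovered reads were tested with edgeR 4.0.16 (quasi-likelihood), which called 984 genes higher and 1379 lower in wild-type tumors than in the cells, and with DESeq2 1.42.0. The fit was also tested on simulated data. Other alternatives were the pseudocount (0.1 and 5), the filter, the scaling, no trend, a replicate block, only the groups compared and each library left out. A gene stayed when its whole 95% interval lay within −1 and 1.

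Genes were named by rule. The rule took members of the gene lists, up to 10 genes per direction with the largest change and no overlap between the groups (lower genes with an MC38 mean of at least 200), the 10 most abundant genes, the 10 most abundant that stayed, the 10 most abundant under 5 normalized counts in both skin libraries, up to 5 per direction between the hosts and 3 on each side of the threshold. Some genes that the rule took are not reported here. Positions are those of GENCODE on GRCm38 (the build of mm10), to which 44052 genes matched by symbol and 777 by synonym. Promoter sequences come from RefSeq (GRCm38.p6). Of 166 genes named in the text, 18 share exon bases with a gene on the same strand and 38 with one on the other strand only, and their reads are uncertain. Lengths were not used, since 3′ reads do not scale with them, and where genes are ranked by abundance the rank is that of their counts.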

Additional observations from a re-analysis of the deposited data

Results flagged for a closer look

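Over the 9779 genes, 1 of the 6 wild-type tumors lay far from the other 5 in 823 (8.42%), where chance gives about 1 in 20 groups. Among the 166 named genes this held for 17. The tumor WT day 46 replicate 3 accounted for 10 of them. Its normalized counts were 28825 for Fn1, 682 for Afp, 2369 for Asap1, 281 for Sema5a, 28.9 for Nol4, 42.7 for Gm22748, 37.0 for Bdh1 and 208 for Fendrr, each above the other tumors, and 1646 for Mcm3 and 237 for Adpgk, each below them. This tumor also had the highest sum of red cell markers, 51388 normalized counts. In WT day 46 replicate 1, Emp2 was high at 1093, and Tpi1 at 4123 and Sox9 at 1923 were low. Pfkfb3 was high at 435 in WT day 46 replicate 2. Among the tumors of day 23, Me1 was high at 1842 in replicate 2, Ccnd1 was low at 6747 in replicate 3, and Hyou1 was high at 118 in replicate 1.

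The change from the cells differed between the hosts in 21 named genes, which was tested as the difference between wild-type and RAG1-labelled tumors. Of these calls 9 were lost without the trend and 6 without RAG1 day 23 replicate 1. The log2 difference was 2.06 for Ly6a, 1.92 for H2-Q6, 1.51 for H2-Q7, 1.40 for Gbp2, 1.38 for Emp2, 1.19 for Tgm2, 1.15 for Cd274, 1.13 for Gbp7, 1.11 for H2-K1, 1.08 for Egln3, 0.98 for H2-D1, 0.92 for Tap1, 0.82 for B2m, 0.63 for Irf1 and 0.52 for Myh9. It was −2.87 for Bdh1, −2.14 for Khdrbs2, −1.92 for Ica1, −1.75 for Lbx2, −1.48 for Cxxc5 and −1.12 for Cth. The markers of T and NK cells and of B cells also had higher sums in every wild-type tumor, the sums of macrophage markers overlapped between the hosts, and the part of these cells in the differences was not tested.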

How the results depend on the processing

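Under the alternatives none of the 139 named genes compared with the cells changed direction. The counts of genes were less stable. With members taken by their mean over the 8 libraries, 1745 genes were higher in wild-type tumors than in the cells. Upper-quartile scaling gave 2204 lower genes in wild-type tumors, 1872 at day 23, 1729 at day 46 and 1619 in tumors labelled RAG1-/-. For wild-type against tumors labelled RAG1-/-, 14 genes were higher without the trend and 120 with DESeq2, and the lower genes numbered 17 without the filter, 7 without the trend, 18 with only the tumors fitted and 100 with DESeq2. Between day 46 and day 23, DESeq2 called 16 genes higher and 19 lower.

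With each library left out in turn, wild-type tumors had 495 to 1131 higher and 426 to 1487 lower genes, 492 to 863 and 448 to 1004 at day 23, 404 to 868 and 310 to 1146 at day 46, and 377 to 848 and 349 to 1116 in tumors labelled RAG1-/-. Between the hosts the ranges were 21 to 84 higher (lowest without RAG1 day 13 replicate 2, highest without RAG1 day 23 replicate 3) and 10 to 63 lower (lowest without RAG1 day 23 replicate 1, highest without RAG1 day 23 replicate 3), between the days 0 to 5 and 0 to 15, and 5109 to 7023 genes stayed. The lowest counts against the cells were those without MC38 replicate 2, and the lowest count of genes that stayed was the one without MC38 replicate 1. Many of the 139 named genes lost their call when 1 of the 2 MC38 libraries was left out, so that these calls rested on both. Scd1, Hspd1, Thbs1 and Cdh2 lost it whichever library was left out. Fasn, Foxm1, Plk1 and Afp lost it without MC38 replicate 2. The effect of depth was not tested. The calls lost most often were those of Psph (11 of 19 alternatives), Igf2bp2 (10) and Hbegf (9). Of the 21 genes named between the hosts, 12 remained called without the trend and 15 without RAG1 day 23 replicate 1, and the calls lost most often were those of Irf1 (13 of 23), Bdh1 (12), Myh9 (11), Gbp2 (10) and Cth (7). Of the 25 named genes that stayed, Hoxc11 no longer did in 11 of 18 alternatives and Irgq in 8.

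The replicate numbers belong to different mice and gave no pairing. Same-numbered tumors correlated by −0.234 to 0.244 in their deviations and others by −0.215 to 0.206, and 6 of 12 tumors matched their own number best. With the replicate block, wild-type tumors had 954 higher and 1198 lower genes than the cells, with 50 and 36 between the hosts, and 6918 stayed.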

Other observations

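The genes that DESeq2 but not limma called between the days include 4 that belong to the MHC class I and interferon list or encode an interferon-induced chemokine, and these were chosen after their values were seen. In wild-type mice Isg15 had 1069, 351 and 716 normalized counts in the 3 tumors sampled at day 23, against 311, 129 and 315 at day 46 (log2 fold change −1.47 ± 0.40, SE, n = 3 and 3; limma adjusted p = 0.287). Bst2 (−1.46), Tap2 (−1.32) and Cxcl10 (−0.84) had negative values too. In each of the 4 genes every tumor of day 23 lay above every tumor of day 46. They were picked from calls made on these same tumors, so that this lack of overlap is no separate test. How many of all genes lay apart between the days was not counted. The T and NK cell markers summed to between 140 and 465 normalized counts at day 23 and between 101 and 232 at day 46, with overlap, and their part in the difference was not tested.

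By chromosome, the 609 protein-coding genes on chromosome 5 had a median log2 fold change of −0.28 in wild-type tumors against the cells and −0.14 in tumors labelled RAG1-/-, where all 9241 protein-coding genes had −0.07 and −0.05. Relative to all genes of the same library, chromosome 5 was lower in 6 of 6 wild-type tumors, with log2 medians of −0.24 to −0.07, and in 6 of 6 tumors labelled RAG1-/-, with −0.10 to −0.05. Chromosomes 2 and 15 were also lower in every tumor of both hosts, with −0.08 to −0.02 and −0.15 to −0.02 in wild-type tumors. In the other direction, chromosomes 9, 10, 14 and X were higher in every tumor of both hosts. Chromosome 14 had 0.07 to 0.17 in wild-type tumors and 0.10 to 0.14 in tumors labelled RAG1-/-. Chromosome 5 was singled out after the values of all chromosomes were seen, and no test was run.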
